A study of Mus musculus with 9 samples.

Results

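The genes described here are 36 mouse genes of cholesterol synthesis, its control by the Srebf transcription factors, and fatty acid synthesis and desaturation, out of 54532 genes counted in 9 RNA-seq libraries of sublingual salivary gland. The sublingual gland is a mucus-secreting salivary gland under the tongue. All 9 libraries were from wild-type mice. The 3 control libraries were from glands that received no radiation, 3 were from glands taken 7 days after 10 Gy of radiation, and 3 from glands taken 14 days after 10 Gy. The RNA was extracted from sections of gland tissue and DNase-treated, as the labels' protocols state. The sources used here do not give strain, sex, age, the time of day of collection, or whether each library came from a separate animal. The genes were chosen by function, with no threshold on any measured value, but the theme was selected on the day 7 and day 14 expression differences already seen in these same libraries. The counts and p-values below therefore describe these genes and are not independent evidence of a direction. All 36 were matched to a gene identifier and all 36 passed the filter on low counts, which left 15348 genes tested.

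Cells build cholesterol from acetyl-CoA through mevalonate, farnesyl diphosphate, squalene and lanosterol, and they build fatty acids from the same acetyl-CoA, which ATP citrate lyase supplies in the cytosol. The proteins encoded by Srebf1 and Srebf2 are held in the endoplasmic reticulum as membrane-bound precursors. When membrane sterol is low, the escort protein encoded by Scap carries them to the Golgi, where they are cleaved and released to the nucleus to activate genes of sterol and fatty acid synthesis. The Insig proteins retain this complex in the endoplasmic reticulum when sterol is plentiful, and Insig1 is itself a target gene.

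The libraries held 15962399 to 19441239 counts each, and 3 counts corresponded to 0.159 to 0.202 CPM (counts scaled to a common library total with the TMM factors of edgeR). Control library 3 stood apart from the other 8 on the third principal component (-41.56, against -7.6 to 25.32) and had a summed CPM of 679 over 15 submandibular granular duct markers, against 265 to 378 in the other 8 libraries. Mucous acinar markers were abundant in every library, with a sum over 9 genes between 234000 and 350000 CPM. RNA here came from whole sections, so fewer cells of a type and less RNA per cell cannot be told apart. In what follows, a gene was called higher or lower where its adjusted p was under 0.05 in the edgeR quasi-likelihood test over all tested genes. Values of a gene in a group are given for libraries 1, 2 and 3 in that order.

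The abundance of the 36 genes in control glands was compared per kilobase of exonic length. Insig1 was highest at 111 ± 13.1 CPM per kilobase (SD, n = 3), followed by Acly at 82.2 ± 2.59, Scd1 at 41.2 ± 2.93, Srebf1 at 38.6 ± 7.17 and Scd2 at 38.2 ± 8.68. Scd1, Srebf1 and Scd2 did not differ beyond the spread of their libraries, whereas Insig1 lay above Acly, and Acly above Scd1, in every control library. At the low end were Idi1 at 0.702 ± 0.203, Hsd17b7 at 0.507 ± 0.224, Stard4 at 0.276 ± 0.152 and Fdps at 0.128 ± 0.0637 CPM per kilobase. These 4 overlapped each neighbour among themselves in the order. Of the 35 neighbouring pairs in the order, 9 were separated and 26 overlapped. The median of the 36 genes was 5.44 CPM per kilobase, against 3.26 over all tested genes, and 24 of the 36 lay above that median. Fdps rested on 4 to 38 counts per library and Stard4 on 10 to 111. On GRCm38 (GENCODE M21), Idi1 lies at chr13:8885501-8892451, Lss at chr10:76531588-76557138, Cyp51 at chr5:4081145-4104746 and Scd1 at chr19:44394455-44407879. Of the 36, 10 overlap an exon of a gene on the other strand: Hmgcs1, Idi1, Fdft1, Lss, Cyp51, Srebf1, Scap, Acss2, Me1 and Elovl6. The sources used here do not say whether reads were counted by strand, so the counts of these 10 may include reads of those genes.

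Promoters of 3 genes called higher at day 7 are shown. RefSeq promoters (GRCm38.p6, 250 bases before to 50 after each start) were found for 29 of the 36 genes, with 38 promoters in all. Only the 250 bases before the start are printed, 5′ to 3′ on the gene's strand, and capitals mark matches on either strand to the motifs searched. These were TCACNCCAC, a form of the sterol response element, CCAAT, the box bound by NF-Y, GGGCGG, the box bound by Sp1, and CACGTG, an E-box. The Hmgcs1 window is chr13:119690101-119690350 on the plus strand of GRCm38.p6, the Acly window is chr11:100528001-100528250 on the minus strand, and the Fasn window is chr11:120824548-120824797 on the minus strand. Hmgcs1 is shown because it was the only gene among the 29 with a promoter match to TCACNCCAC, and the others were chosen after the search, as called genes with small p and a single promoter entry. Cyp51 was chosen in the same way and is not printed. Its window held a CCAAT match beginning 29 bases and a GGGCGG match beginning 135 bases before the start.
Hmgcs1: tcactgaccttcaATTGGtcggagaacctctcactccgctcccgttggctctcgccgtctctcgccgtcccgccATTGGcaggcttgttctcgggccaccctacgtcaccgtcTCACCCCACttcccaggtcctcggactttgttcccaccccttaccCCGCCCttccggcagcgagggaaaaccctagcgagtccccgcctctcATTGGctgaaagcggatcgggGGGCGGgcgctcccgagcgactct
Acly: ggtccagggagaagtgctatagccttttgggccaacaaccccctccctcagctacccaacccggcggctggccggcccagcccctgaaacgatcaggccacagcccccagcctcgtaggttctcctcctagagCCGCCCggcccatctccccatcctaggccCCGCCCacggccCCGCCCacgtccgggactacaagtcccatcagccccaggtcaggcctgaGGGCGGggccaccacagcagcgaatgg
Fasn: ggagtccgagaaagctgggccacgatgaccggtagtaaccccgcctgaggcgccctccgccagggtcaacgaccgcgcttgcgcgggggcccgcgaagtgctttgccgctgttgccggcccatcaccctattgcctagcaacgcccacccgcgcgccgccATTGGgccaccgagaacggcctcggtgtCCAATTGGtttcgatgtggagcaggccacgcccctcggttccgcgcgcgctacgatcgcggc
In Hmgcs1 the sterol response element began 137 bases before the start, between CCAAT matches that began 176 and 45 bases before it. The Acly window held 4 GGGCGG matches and no CCAAT match. The Fasn window held 3 CCAAT matches, of which those beginning 62 and 59 bases before the start overlapped on opposite strands. Over the 300-base windows, TCACNCCAC was found in 2.63% of the 38 promoters (1 promoter) and in 1.24% of all 32851. CCAAT was found in 24 of the 38 (63.2%, against 37.4% of all), GGGCGG in 27 (71.1%, against 35.7%) and CACGTG in 7 (18.4%, against 7.15%). A match is a description of letters in the window.

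The comparison of day 7 with control asks how the irradiated gland differed from the untreated one 7 days after the dose. Of the 36 genes, 17 were called higher and 2 lower, while 17 were not called. Over all 15348 tested genes, 15.8% were called higher and 14.8% lower in the same fit. The median log2 fold change of the 36 was 0.30, against 0.02 over all tested genes. The libraries of the groups did not overlap for 20 genes that lay above the controls and for 3 that lay below, and over all tested genes these shares were 22.2% and 21.7%. Of the 18 enzymes of sterol synthesis, 9 were called higher and 2 lower, with a median log2 fold change of 0.41. Of the 12 genes of fatty acid synthesis, elongation and desaturation, 5 were called higher and 0 lower, with a median of 0.27. When day 7 library 1 was left out, 11 genes were called higher in place of 17, and the calls of Msmo1, Hsd17b7, Dhcr7, Srebf2, Stard4 and Elovl6 were lost. In that fit 10.1% of all tested genes were called higher.

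**Figure D1:**
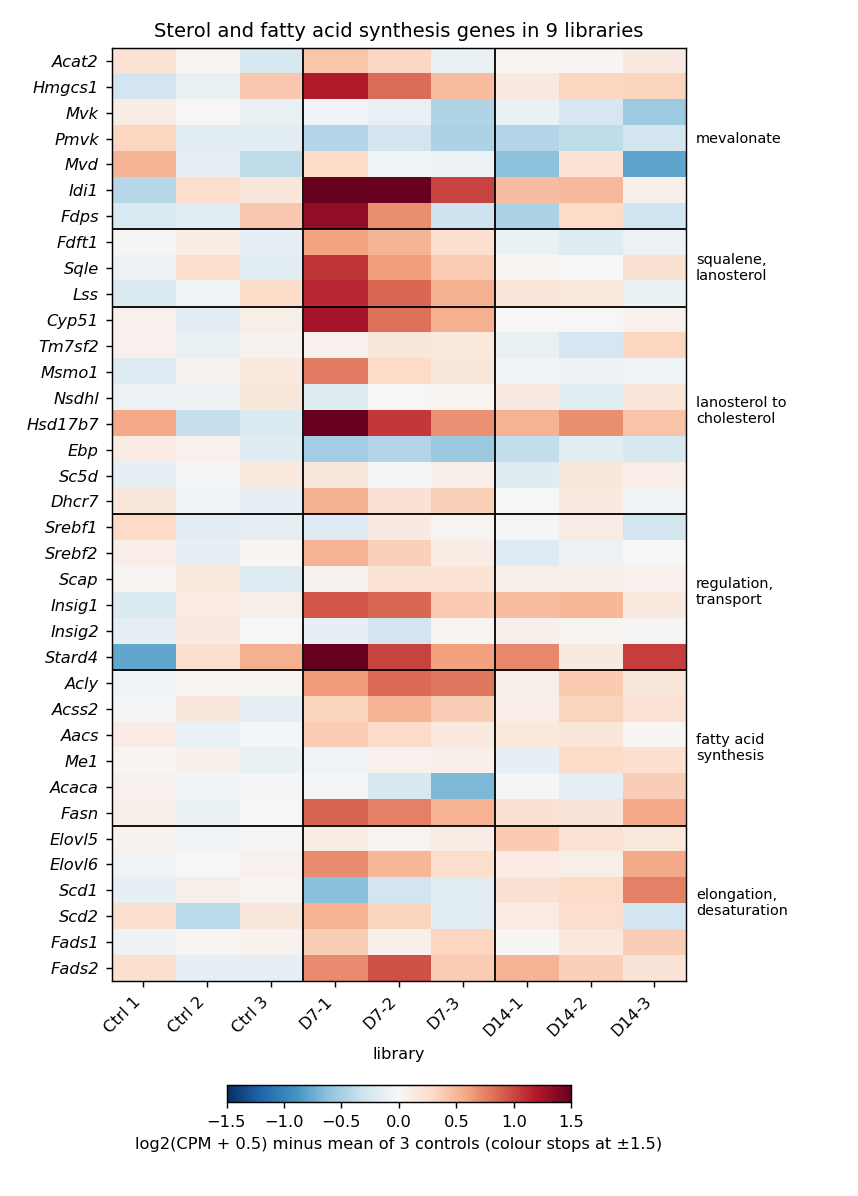
Heat map of the 36 genes (vertical axis, by role) in the 9 libraries (horizontal axis; Ctrl, control; D7 and D14, days 7 and 14 after 10 Gy). Colour gives log2(CPM + 0.5) minus the mean of the 3 controls and stops at 1.5 in either direction. Idi1, Hmgcs1, Sqle, Lss and Cyp51 are red in all 3 day 7 libraries and paler at day 14, and Ebp is blue at day 7.

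In the mevalonate arm, which makes the isoprenoid units, 2 of 7 genes rose at day 7 and 1 fell. This count and those of the other roles below are of few genes. They stand beside the 15.8% of all tested genes called higher and the 14.8% called lower. Hmgcs1, the cytosolic HMG-CoA synthase, was at 17.9, 20.2 and 29.1 CPM in the controls, 50.6, 39.5 and 30.5 at day 7 and 24.2, 27.6 and 27.8 at day 14. All 3 day 7 libraries lay above the controls, although the lowest, library 3, was close to the highest control. Hmgcs1 rose to 1.79 times the control level (log2 0.84, SE 0.19, edgeR adjusted p = 0.00392). Idi1, the isomerase that makes the reactive isoprenoid unit, was at 1.65, 2.97 and 2.77 CPM in the controls, 10.6, 7.64 and 5.37 at day 7 and 3.51, 3.56 and 2.55 at day 14. Its day 7 libraries lay clear of the controls and of day 14, and the rise was the largest among the 36 genes, to 3.2 times the control level (log2 1.68, SE 0.30, edgeR adjusted p = 0.000441). Pmvk, phosphomevalonate kinase, was at 26, 18.3 and 18.5 CPM in the controls, 15.1, 16.9 and 14.7 at day 7 and 15.1, 15.7 and 17 at day 14. It lay below the controls in every irradiated library and fell at day 7 to 0.743 times the control level (log2 -0.43, SE 0.15, edgeR adjusted p = 0.0383). The Pmvk call was lost in 8 of the 19 alternative analyses, among them those without control library 1, the highest of the controls, without day 7 library 1, 2 or 3, and with correction for gene length and GC content (log2 -0.07). Acat2, Mvk, Mvd and Fdps were not called, with log2 fold changes from -0.20 for Mvk to 1.10 for Fdps. The Fdps value came with an SE of 0.68, and its day 7 libraries ran from 0.322 to 2.06 CPM. Idi1, Fdps and Acat2 share 15.8%, 21.4% and 28.9% of their 100-base exonic windows with other annotated genes, so their counts are less certain.

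All 3 enzymes from farnesyl diphosphate to lanosterol rose at day 7. Fdft1, squalene synthase, was at 45.9, 49.1 and 41.2 CPM in the controls, 69, 64.5 and 53.5 at day 7 and 42.4, 40 and 42.7 at day 14. It was higher in every day 7 library than in any control, at 1.37 times the control level (log2 0.46, SE 0.11, edgeR adjusted p = 0.00466). Sqle, squalene epoxidase and a control point of the pathway, was at 15.8, 20.3 and 14.9 CPM in the controls, 36.1, 26.2 and 22 at day 7 and 17.2, 16.9 and 19.9 at day 14. The day 7 libraries again lay above all controls, with library 3 nearest to them, and the rise was to 1.66 times the control level (log2 0.73, SE 0.17, edgeR adjusted p = 0.00361). Lss, lanosterol synthase, was at 28.8, 32.1 and 40.6 CPM in the controls, 73.9, 61.2 and 48.7 at day 7 and 38.2, 37.4 and 31.2 at day 14. Here too the groups did not overlap, and the rise was to 1.81 times the control level (log2 0.85, SE 0.15, edgeR adjusted p = 0.000588). The calls of Fdft1, Sqle and Lss were kept in all 19 alternative analyses. Fdft1 and Lss overlap exons of Ctsb and 4930483K19Rik, which lie on the other strand.

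Of the 8 genes that turn lanosterol into cholesterol, 4 rose, 1 fell and 3 were not called. Cyp51, the lanosterol demethylase, was at 17.6, 15 and 17.9 CPM in the controls, 40.3, 30.1 and 24.6 at day 7 and 16.9, 16.9 and 17.6 at day 14. Its controls and day 14 libraries lay within a narrow band and all 3 day 7 libraries lay above it, at 1.88 times the control level (log2 0.91, SE 0.16, edgeR adjusted p = 0.000352). Hsd17b7, the sterol ketone reductase, was a gene of low count at 3.90, 1.82 and 2.04 CPM in the controls, 8.91, 5.66 and 4.25 at day 7 and 3.74, 4.30 and 3.47 at day 14. The lowest day 7 library was just above the highest control, and the rise was to 2.42 times the control level (log2 1.27, SE 0.32, edgeR adjusted p = 0.00578). Msmo1, the sterol methyl oxidase, was at 16.4, 19.6 and 21 CPM in the controls, 32.7, 23.3 and 21.4 at day 7 and 18.3, 17.7 and 18 at day 14. Day 7 library 1 was well above the rest and libraries 2 and 3 were only slightly above the highest control, with a rise to 1.36 times the control level (log2 0.44, SE 0.15, edgeR adjusted p = 0.0363). Dhcr7, the last reductase of the pathway, was at 22.6, 19.4 and 18.3 CPM in the controls, 29.1, 23.6 and 25.7 at day 7 and 20.1, 22 and 19.3 at day 14. Every day 7 library was above every control by a small margin, at 1.3 times the control level (log2 0.38, SE 0.13, edgeR adjusted p = 0.0357). Ebp, the sterol isomerase, went the other way at 58.1, 56 and 47.1 CPM in the controls, 37, 39.4 and 36.2 at day 7 and 41.5, 47.7 and 45.3 at day 14. It fell in all 3 day 7 libraries without overlap, to 0.699 times the control level (log2 -0.52, SE 0.11, edgeR adjusted p = 0.00159), and the call was kept in all 19 alternatives. Tm7sf2, Nsdhl and Sc5d had log2 fold changes of 0.13, -0.05 and 0.07. After length and GC correction the log2 fold changes of Msmo1 and Dhcr7 were 0.20 and 0.33, and neither was called. The call of Msmo1 was also lost without control library 1, control library 2 or day 7 library 1, that of Dhcr7 when any of control libraries 2 and 3 and day 7 libraries 1 and 3 was left out, and that of Hsd17b7 without day 7 library 1.

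Summed over the 18 sterol enzymes, the level was 373, 367 and 370 CPM in the controls, 531, 456 and 399 at day 7, and 346, 365 and 359 at day 14. The controls lay within a few CPM of each other and the 3 day 7 libraries spread widely above them. Among the 17 genes called higher at day 7, library 1 was the highest and library 3 the lowest of the day 7 libraries for 13. Dhcr7, Acly, Acss2 and Fads2 were the exceptions. The same order was found in 17.9% of all tested genes, a share not limited to genes called higher at day 7. Among 16 listed clock genes, Per1, Per2 and Per3 had that order too, and the number of others with it is not given here. Per2 was at 47.1, 37.4 and 25.3 CPM at day 7, against 4.59 to 10.2 CPM in the controls. Per3 was at 174, 150 and 96.6 CPM at day 7, against 15.9 to 29.9 CPM in the controls. Of 16 clock genes, 9 were called higher and 3 lower at day 7, and Arntl, which encodes the clock activator BMAL1, was at 0.815, 1.21 and 1.13 CPM against 11.8 to 13.2 in the controls. The time of collection is not given, and the part of these genes in the result was not tested.

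The genes of the Srebf machinery did not move as a block. Srebf1, which favours fatty acid genes, was at 264, 192 and 196 CPM in the controls, 188, 236 and 221 at day 7 and 212, 235 and 177 at day 14. The 3 groups overlapped, with a day 7 level of 0.988 times the control level (log2 -0.02, SE 0.13, edgeR adjusted p = 0.936). Srebf2, which favours sterol genes, was at 95.7, 81.6 and 90.8 CPM in the controls, 128, 114 and 96 at day 7 and 78, 84.9 and 89.6 at day 14. Its day 7 libraries lay above the controls, library 3 only just, and the rise to 1.26 times the control level (log2 0.33, SE 0.11, edgeR adjusted p = 0.0245) was the smallest among the called genes. The Srebf2 call was lost without control library 2, day 7 library 1 or day 7 library 2. Scap was at 70.4, 75.4 and 59.8 CPM in the controls, 70.5, 78.7 and 78.7 at day 7 and 72.6, 72.2 and 71.6 at day 14. Its groups overlapped, at 1.11 times the control level (log2 0.15, SE 0.10, edgeR adjusted p = 0.282). Insig1, a retention factor whose gene is itself a Srebf target, was at 297, 372 and 363 CPM in the controls, 654, 622 and 448 at day 7 and 471, 482 and 380 at day 14. It rose in every day 7 library, at 1.67 times the control level (log2 0.74, SE 0.14, edgeR adjusted p = 0.00103), and the day 14 libraries lay above the controls and overlapped day 7. Insig2, its paralog, was at 37.3, 45.2 and 41.1 CPM in the controls, 37.6, 33.9 and 42 at day 7 and 43.3, 42.3 and 41.6 at day 14. Its groups overlapped as well, at 0.919 times the control level (log2 -0.12, SE 0.11, edgeR adjusted p = 0.438). Stard4, a sterol transfer protein of low count, was at 0.610, 1.75 and 2.26 CPM in the controls, 6.03, 3.35 and 2.42 at day 7 and 2.63, 1.59 and 3.41 at day 14. The day 7 libraries lay above the controls, the lowest by a small margin, at 2.54 times the control level (log2 1.34, SE 0.44, edgeR adjusted p = 0.0292). The Stard4 call was lost under length and GC correction, under the replicate block, and without control library 1, control library 2 or day 7 library 1.

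In fatty acid synthesis, 3 of 6 genes rose at day 7. Acly, ATP citrate lyase, which makes the cytosolic acetyl-CoA used by both pathways, was at 418, 441 and 443 CPM in the controls, 674, 781 and 749 at day 7 and 461, 570 and 487 at day 14. The day 7 libraries lay far above the closely grouped controls, at 1.69 times the control level (log2 0.76, SE 0.10, edgeR adjusted p = 3.31e-05), the smallest p among the 36 genes. Acss2, which makes acetyl-CoA from acetate, was at 51.6, 59.2 and 48 CPM in the controls, 66.7, 75.5 and 68.5 at day 7 and 56.5, 66.7 and 61.3 at day 14. It was higher in all 3 day 7 libraries, at 1.33 times the control level (log2 0.41, SE 0.11, edgeR adjusted p = 0.00712), but its call was lost after length and GC correction (log2 0.16). Fasn, fatty acid synthase, was at 68, 59.7 and 64.5 CPM in the controls, 118, 108 and 92.2 at day 7 and 75.3, 73.2 and 95 at day 14. The groups did not overlap at day 7, and the rise was to 1.65 times the control level (log2 0.73, SE 0.12, edgeR adjusted p = 0.000164). Acaca, acetyl-CoA carboxylase and the committed step, had a log2 fold change of -0.30 and was not called (edgeR adjusted p = 0.177), with 26.1 to 28.1 CPM in the controls and 16.7 to 26.6 at day 7. After length and GC correction Acaca was called lower at log2 -0.59. Aacs, which activates acetoacetate, had a log2 fold change of 0.27 (edgeR adjusted p = 0.0578) and was called higher after that correction (log2 0.43). Me1, malic enzyme, had a log2 fold change of 0.04. Acaca and Me1 share 23.7% and 12.3% of their exonic windows with other genes.

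Among the elongases and desaturases, 2 of 6 rose at day 7. Fads2, the first desaturase of polyunsaturated fatty acid synthesis, was at 11.6, 8.90 and 8.94 CPM in the controls, 16.3, 19.3 and 12.8 at day 7 and 14.1, 12.6 and 11.2 at day 14. All 3 day 7 libraries were above the controls, at 1.64 times the control level (log2 0.72, SE 0.18, edgeR adjusted p = 0.00515). Elovl6, the elongase of long saturated fatty acids, was at 8.29, 8.63 and 9.05 CPM in the controls, 14.4, 12.4 and 10.5 at day 7 and 9.47, 9.19 and 13.1 at day 14. It was higher in every day 7 library, at 1.44 times the control level (log2 0.52, SE 0.18, edgeR adjusted p = 0.036), and after length and GC correction it was not called (log2 0.24). Leaving out any of control libraries 1 and 2 and day 7 libraries 1 and 2 also ended the Elovl6 call. Scd1, the main stearoyl-CoA desaturase, was at 185, 213 and 206 CPM in the controls, 130, 165 and 178 at day 7 and 235, 245 and 339 at day 14. Its day 7 libraries lay below the controls and its day 14 libraries above them. The day 7 level of Scd1 was 0.781 times the control level (log2 -0.36, SE 0.14, edgeR adjusted p = 0.0656), and it was called lower in 10 of the 19 alternatives. Elovl5, Scd2 and Fads1 were not called, with log2 fold changes of 0.09, 0.23 and 0.27.

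**Figure D2:**
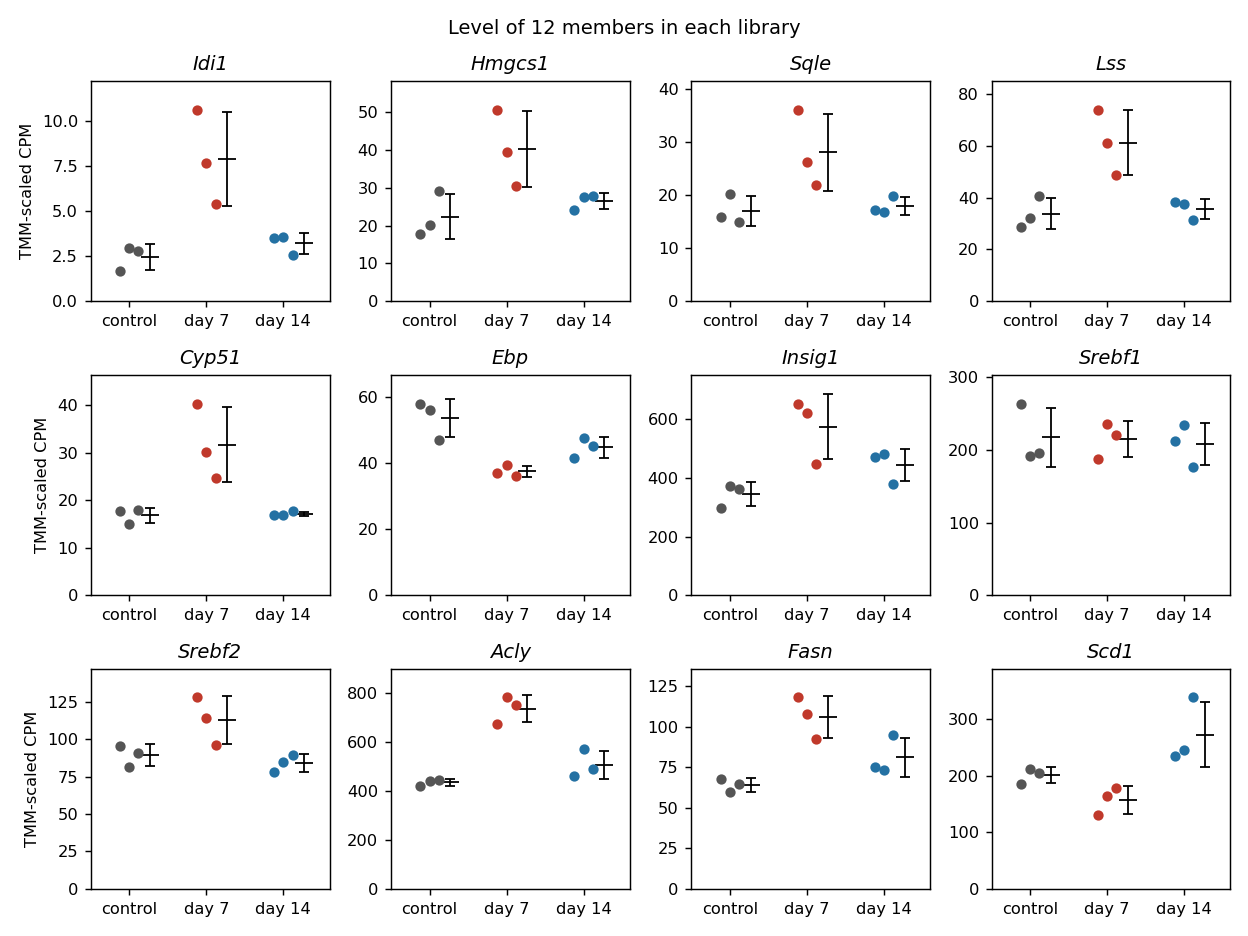
Level of 12 of the genes in each library. The vertical axis is TMM-scaled CPM from 0, points are single libraries, and the bar beside each group is the mean with 1 SD (n = 3). Acly at day 7 sits between 674 and 781 CPM, above controls of 418 to 443, whereas Scd1 is lowest at day 7 and highest at day 14.

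Correction for gene length and GC content changed the day 7 call of 9 of the 36 genes. With it, 13 of the 36 genes were called higher and 3 lower, while 9.33% of all tested genes were called higher and 11.3% lower. Msmo1, Dhcr7, Stard4, Acss2 and Elovl6 were no longer called higher and Pmvk no longer lower. Aacs was added to the genes called higher, and Scd1 and Acaca joined Ebp among those called lower. The median log2 fold change of the 36 moved from 0.30 to 0.28. Calls of Idi1, Fdft1, Sqle, Lss, Cyp51, Insig1, Acly, Fasn and Fads2 as higher and of Ebp as lower were kept in all 19 alternatives, which makes 10 of the 19 genes called.

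**Figure D3:**
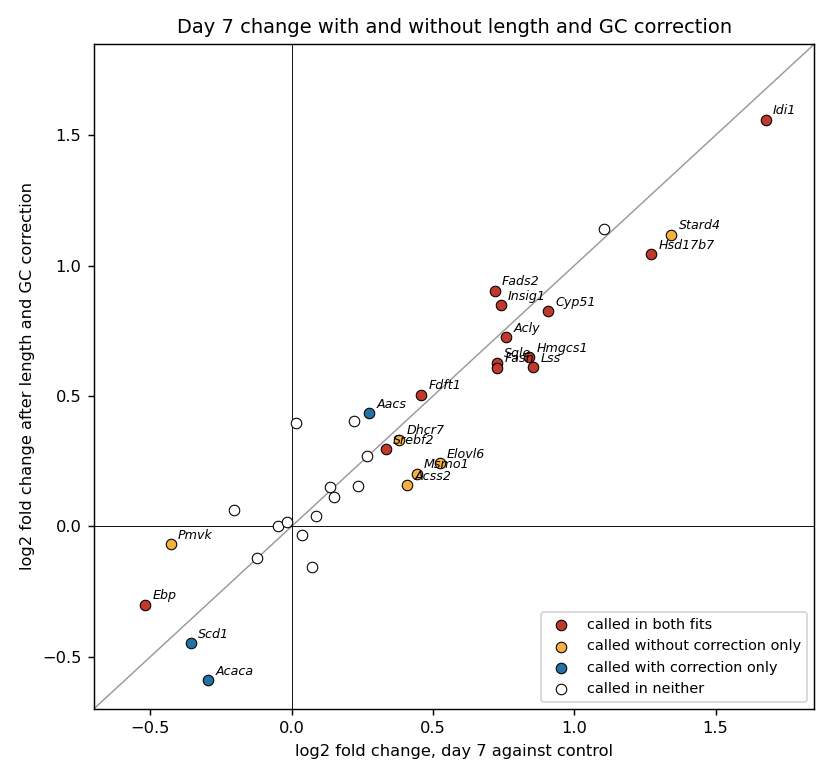
Log2 fold change of the 36 genes at day 7 against control without (horizontal axis) and with (vertical axis) correction for gene length and GC content. The grey line marks equal values and colours mark in which fit a gene was called. Idi1 is highest on both axes, and Acss2, Msmo1 and Elovl6 lie below the line and lose their call.

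At day 14, which asks whether the differences of day 7 were still present, none of the 36 genes was called against control in the edgeR test (0 higher and 0 lower). Over all tested genes 1.13% were called higher and 0.632% lower. At an unadjusted p under 0.05 there were 7 of the 36, against 21.3% of all tested genes. DESeq2 called 1 gene higher, Scd1, and 0 lower, where it called 5.02% of the genes it tested higher and 3.83% lower. The limma-voom test called Fasn higher and Ebp lower, with 6.3% of all genes called higher and 3.82% lower. Without control library 3, Pmvk and Ebp were called lower, as were 5.3% of all genes then tested, and 6.99% were called higher. With no filter on low counts Insig1, Fasn and Scd1 were called higher, as were 3.38% of all genes then tested, and 1.37% were called lower. The median log2 fold change of the 36 was 0.07, against 0.01 over all tested genes. Insig1 was at 1.29 times the control level (log2 0.37, SE 0.14, edgeR adjusted p = 0.139), and its day 14 libraries lay above all controls. Fasn was at 1.27 times the control level (log2 0.34, SE 0.12, edgeR adjusted p = 0.101). Scd1 was at 1.35 times the control level (log2 0.44, SE 0.14, edgeR adjusted p = 0.0956). The day 14 libraries of both genes again lay above all controls. Among the 36 genes, all day 14 libraries lay above all controls for 6 and below them for 1. Over the 15348 tested genes these counts were 1910 and 1638. Among the sterol enzymes, none of which was called, log2 fold changes ran from -0.41 for Mvd to 0.57 for Hsd17b7, with Idi1 at 0.38, Hmgcs1 at 0.24, Sqle at 0.08, Cyp51 at 0.02 and Pmvk at -0.40. All 12 genes of fatty acid synthesis, elongation and desaturation had log2 fold changes above 0, with a median of 0.22, and none was called. Over all tested genes, 7906 of 15348 had log2 fold changes above 0. Acaca went to -0.06 with length and GC correction. Acaca or Scd2 also fell below 0 without some libraries (Acaca -0.08 without day 14 library 3, Scd2 -0.18 without control library 2). The 18 sterol enzymes had a median of 0.03. Summed over those 12 genes the level was 1120, 1080 and 1140 CPM in the controls, 1470, 1560 and 1430 at day 7 and 1220, 1370 and 1330 at day 14.

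**Figure D4:**
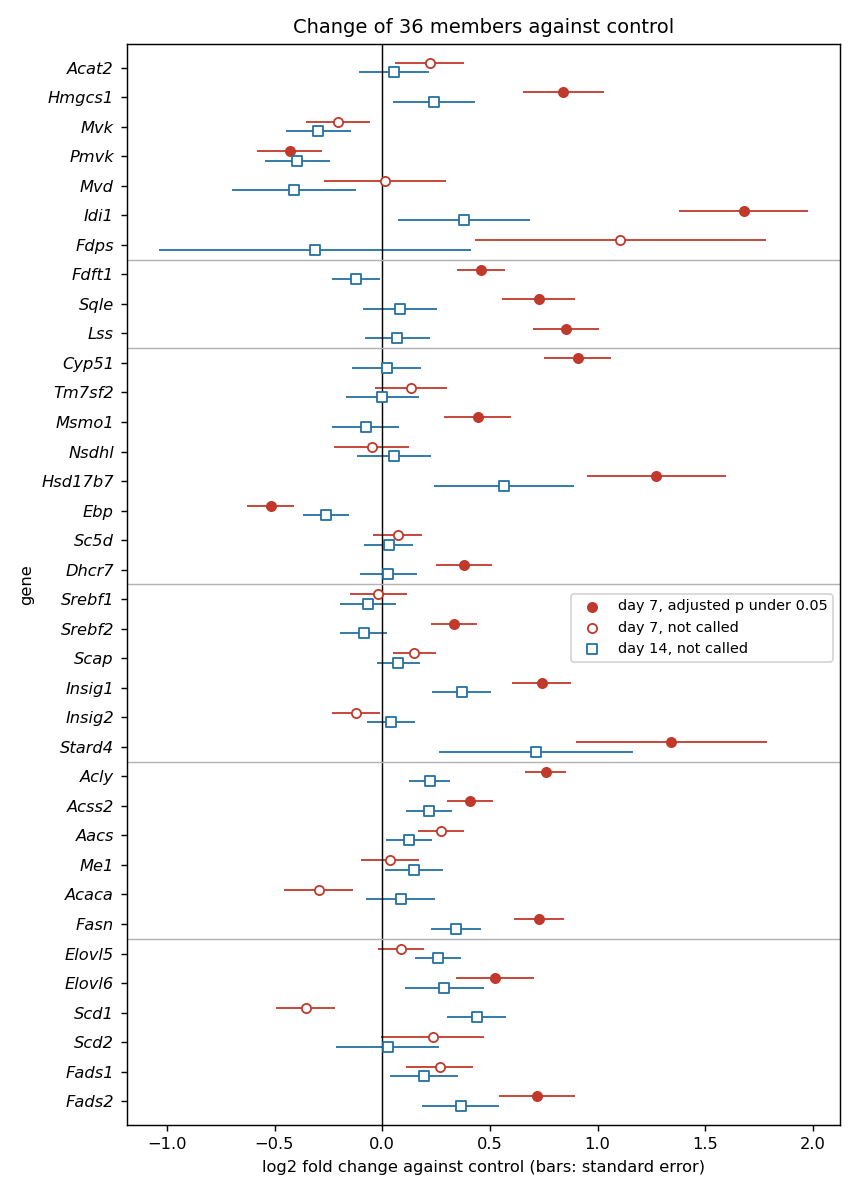
Log2 fold change of each gene (vertical axis, by role) against control at day 7 (circles) and day 14 (squares), with bars of 1 standard error. Filled symbols had an edgeR adjusted p under 0.05. All 36 day 14 symbols are open, and both comparisons use the same 3 controls.

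Both sets of changes against control share the control libraries, so day 14 was also compared with day 7 directly. Of the 36 genes, 9 were called lower at day 14 than at day 7 and 1 higher, and 26 were not called. Over all tested genes 2.87% were called lower and 3.72% higher. Idi1 fell by 1.30 on the log2 scale from day 7 to day 14 (SE 0.29, edgeR adjusted p = 0.0126). Cyp51 fell by 0.89, Lss by 0.78, Sqle by 0.64, Fdft1 by 0.58 and Msmo1 by 0.52, so that all 3 squalene and lanosterol enzymes were among the called genes. Outside the enzymes of the sterol pathway, Acly fell by 0.54, Srebf2 by 0.42 and Fasn by 0.39. Over the 36 genes, all 3 day 14 libraries lay below all 3 of day 7 for 11 and above them for 3, against 13.5% and 15.9% of all tested genes. Among the 9 called lower the groups overlapped only for Fasn, whose day 14 library 3 (95.0 CPM) exceeded day 7 library 3 (92.2 CPM). Hmgcs1 was lower in all 3 day 14 libraries and was not called, at 0.66 times the day 7 level (log2 -0.60, SE 0.19, edgeR adjusted p = 0.0691). It was called lower in 7 of the 19 alternatives, among them DESeq2, limma-voom, the fit without a filter on low counts and the fit to the 6 libraries compared. Insig1 and Acaca each gained a call in 2 alternatives. Without day 7 library 1, 4 of the 36 were called lower, and 5 were without day 7 library 2, day 14 library 1 or day 14 library 2, where 1.24%, 0.753%, 1.08% and 1.36% of all tested genes were called lower in turn. The calls of Fdft1, Lss, Cyp51 and Acly were kept in all 19 alternatives. The call of Idi1 was lost without day 7 library 1 or day 14 library 3. Those of Srebf2, Fasn, Sqle and Msmo1 were lost when any of day 7 libraries 1 and 2 and day 14 libraries 1 and 2 was left out, those of Sqle and Msmo1 also without day 14 library 3, and those of Fasn and Msmo1 without control library 2. Under the replicate block 6 were called lower, where 2.05% of all tested genes were. With length and GC correction Acaca joined Scd1 among the genes called higher, 7 were called lower, and 3.99% and 2.38% of all genes were called higher and lower.

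Scd1 was the gene called higher at day 14 than at day 7, at 1.73 times the day 7 level (log2 0.79, SE 0.14, edgeR adjusted p = 0.00472), and the call was kept in all 19 alternatives. Day 14 library 3, with the highest Scd1 at 339 CPM, was also the library with the highest summed CPM over 10 adipocyte markers, 227 against 111 to 169 in the other 8. Adipoq was at 7.31, Plin1 at 5.42 and Cidec at 6.83 CPM in that library, against at most 1.38, 0.869 and 0.797 elsewhere. The Scd1 call was also made without that library. The adipocyte sum was 118 to 147 CPM in controls, 111 to 127 at day 7 and 131 to 227 at day 14. Every day 14 library thus lay above every day 7 library for this sum. The part of adipocytes in the Scd1 change was not tested.

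Markers of other cell types were read beside the lipid genes, and their calls are those of day 7 against control. Over all tested genes 15.8% were called higher and 14.8% lower in that comparison, and several of the lists are short. All 10 genes of the proliferation list were called higher, and their sum was 8.35 to 19.6 CPM in controls, 88.7 to 146 at day 7 and 14.4 to 34.3 at day 14. Of 9 mucous acinar markers 7 were called lower and 1 higher at day 7. The sum over 9 macrophage markers was 204 to 233 CPM in controls, 114 to 178 at day 7 and 273 to 353 at day 14, with 3 of 9 called lower at day 7. The sum over 5 parotid and serous acinar markers was 12700 to 14300 CPM in controls, 7490 to 8830 at day 7 and 7540 to 9090 at day 14. Of the 4 tested genes, 1 was called lower at day 7, and log2 fold changes were above 0 for 2 and below 0 for 2. For 0 of the 4 did all day 7 libraries lie below all controls, so the sum does not describe the list as a whole. B and plasma cell markers summed to 1480 to 1580 CPM in controls, 1160 to 1280 at day 7 and 1210 to 1510 at day 14, with 2 of 4 called lower at day 7. Fibroblast markers went from 354 to 382 CPM in controls to 407 to 494 at day 7 (3 of 6 called higher) and 397 to 507 at day 14. Endothelial markers went from 330 to 372 CPM to 410 to 493 at day 7 (2 of 5 called higher) and 391 to 433 at day 14. The sum over 9 myelinating Schwann cell markers was 207 to 234 CPM in controls and 190 to 201 at day 7, with 2 of 7 tested genes called lower. The sum over 6 sebaceous gland markers was 182 to 210 CPM in controls, 255 to 276 at day 7 and 200 to 224 at day 14, which at day 7 lay above every control. Of the 4 tested, 1 was called higher, Soat1, a sterol esterifying enzyme that also stands in the list of sterol trafficking, and Mc5r and Awat1 had no counts in any library. The part of these cell types in the changes of the lipid genes was not tested.

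Genes of the same pathways outside the 36 were read from lists. Their counts at day 7 stand beside the 15.8% of all tested genes called higher and the 14.8% called lower. With length and GC correction these shares were 9.33% and 11.3%. They were 9.98% and 10.6% without control library 1, 10.3% and 11.6% without control library 2, and 17.3% and 16.4% without control library 3. Without day 7 library 1 they were 10.1% and 9.6%, without library 2 11.2% and 11.1%, and without library 3 12.9% and 12.2%. Of 12 tested genes of other sterol and isoprenoid synthesis, 4 rose at day 7 and 1 fell. Lbr, a lamin receptor that is also a sterol reductase, rose by log2 1.20, a call kept in all 19 alternatives. Fnta, a farnesyltransferase subunit, fell by 0.43 on the log2 scale. Of 10 genes of sterol sensing and Srebf processing, 3 rose, and 1 of them, Erlin1, was called after length and GC correction. Without control library 1, 2 genes of the former list rose and 1 of the latter.

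For sterol uptake, trafficking and efflux, 6 of 18 tested genes rose at day 7 and 3 fell, and after length and GC correction 2 rose and 1 fell. Without control library 1 or day 7 library 2, 1 fell, and without control library 2, 3 rose. Abca1, the cholesterol efflux pump, rose by log2 0.80 and the lysosomal sterol carrier Npc2 fell by 0.54 on the log2 scale. Both calls were kept in all 19 alternatives. Of 17 tested genes of fatty acid elongation, activation and citrate supply, 5 rose and 6 fell, and 3 fell without control library 2, without day 7 library 1 or after length and GC correction. The acyl-CoA synthetases Acsl3 and Acsl4 rose by log2 0.62 and 0.71 (0.44 and 0.35 after length and GC correction, both still called) and Acacb, the mitochondrial-surface carboxylase, by 0.67, while Acsl5 fell by 0.55 and Hacd2, an elongation dehydratase, by 0.58. Of 9 tested genes of triglyceride synthesis, 2 rose, Dgat2 by log2 1.06 and Gpam by 0.87. The lipase Pnpla2 of that list fell by 0.28 on the log2 scale, a call that ended after length and GC correction (log2 -0.05, edgeR adjusted p = 0.755), with limma-voom, and when any of control libraries 1 and 2 and day 7 libraries 1 and 3 was left out. Of 20 tested genes of fatty acid oxidation, 3 rose, with Cpt1a at log2 0.69, and 1 fell (2 without control library 3), shares at or below the 15.8% and 14.8% of all tested genes. Of 11 tested lipogenic regulators 0 rose and 2 fell, Cebpa and Mlx, and neither was called after length and GC correction, nor without control library 1 or day 7 library 1. Without day 7 library 3, 2 of these regulators were called higher. At day 14 against control, Abca1 (log2 0.68), Acsl4 (0.53) and Gpam (0.74) were the genes of these lists that were called, where 1.13% of all tested genes were called higher and 0.632% lower, and each lost its call without control library 1, control library 2, day 14 library 2 or day 14 library 3. Those of Abca1 and Gpam were also lost without day 14 library 1, and that of Gpam without day 7 library 2 and under the replicate block. After length and GC correction Acsl4 was at log2 0.25 at day 14 and was no longer called (edgeR adjusted p = 0.197).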

How the data were processed

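Each library was deposited by the authors as a table of whole-number read counts per gene, with no normalisation. STAR, featureCounts, DESeq2 and the mm10 build are named, per the submitters' processing notes; the sources used here give no version, annotation or strand setting. Identifiers were matched to GENCODE M21 on GRCm38, and 54409 of 54532 had a symbol. In R 4.3.3, edgeR 4.0.16 kept genes by filterByExpr (15348 tested, 39184 removed), scaled libraries by TMM and ran the two-sided robust quasi-likelihood test over all 9 libraries with group as the only term, with Benjamini-Hochberg adjustment over all tested genes at a threshold of 0.05 and a biological coefficient of variation of 16.1%. The step was tested on a simulated comparison of day 7 with control over 14765 genes. At a 2-fold change 95.5% and at 1.5-fold 50.7% of changed genes were recovered, and 6.29% of the calls were false. The changed genes were far fewer than the calls in the real comparison and were drawn only from genes above a minimum level. These shares therefore do not describe genes of low count such as Idi1, Hsd17b7, Stard4 and Fdps.

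The genes and lists were chosen with earlier results of these data known. Values in every library are given for genes called in at least 1 comparison, for Srebf1, Srebf2, Scap, Insig1 and Insig2, and for Hmgcs1, Sqle, Fasn and Scd1; the other members are given by ranges and counts, and some genes outside the 36 to which the rule applies are not reported here. For the other lists the genes named were picked from those called, after their values were seen. Since no label ties replicates to separate animals, the p-values reflect only how these samples vary, and that variation may be technical. Within groups, every pair of libraries differed by more than counting noise (9.19 to 124 for chi-square over its degrees of freedom). The alternatives were DESeq2 size factors, TMM without the 20 most abundant genes, no filter, at least 1 CPM in 3 libraries, the Wald test of DESeq2 1.42.0, voom with sample weights in limma 3.58.1, a fit to the 6 libraries of a comparison, a replicate block, a correction for exonic length and GC content (known for 99.9% of tested genes), both together, and leaving out each library.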

Additional observations from a re-analysis of the deposited data

Results flagged for a closer look

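The log2 fold changes against the shared controls differed between day 7 and day 14 for 10 of the 36 genes in the edgeR test. The shared controls cancel in the difference, so these are the calls of day 14 against day 7 given above and not a separate test. Over all tested genes 3.72% were called higher and 2.87% lower. Of the 10 calls, 5 were kept in all 19 alternatives. The log2 fold change at day 14 minus that at day 7, both against control, was -1.298 for Idi1, -0.886 for Cyp51 and -0.783 for Lss. It was -0.643 for Sqle, -0.58 for Fdft1 and -0.519 for Msmo1, the other sterol enzymes among the 10. It was -0.418 for Srebf2, -0.538 for Acly and -0.385 for Fasn. For Scd1 it was 0.794, the only positive value among the 10. The reasons for these differences were not tested.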

How the results depend on the processing

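At day 7 against control, 17 genes were called higher and 2 lower. Leaving out each library in turn gave 11 to 17 higher and 1 to 3 lower. Over all tested genes, those fits called 9.98% to 17.3% higher and 9.6% to 16.4% lower. At day 14 against control, with 0 called, there were 3 higher with no filter on low counts and 1 higher with DESeq2. With limma-voom there were 1 higher and 1 lower. Leaving out each library gave 0 to 2 lower, against 0.0379% to 5.3% of all tested genes. At day 14 against day 7, with 1 higher and 9 lower, 2 were higher with length and GC correction. With the replicate block together with that correction, 2 were higher and 5 lower, against 3.65% and 2.1% of all tested genes. Leaving out each library gave 4 to 11 lower, against 0.753% to 4.29% of all tested genes. The cause of these changes was not tested. The replicate block alone gave 14 higher and 2 lower at day 7, 0 and 0 at day 14, and 1 higher and 6 lower at day 14 against day 7. Over all tested genes, the block called 14.5% higher and 13.6% lower at day 7, and 0.528% and 0.208% at day 14. For day 14 against day 7 it called 2.81% higher and 2.05% lower. Libraries with the same number did not deviate together (correlations -0.112 to 0.0367, and 0 of 9 libraries correlated best with their own number). Such correlations cannot settle whether a number marks a shared litter or batch, which the labels do not say. No value reversed its direction among those called. Among single genes, 75 calls were lost and 37 gained over all alternatives, and 11 values of genes not called changed sign by at least 1 standard error while staying uncalled; the other 1924 did none of these. Fdps, Stard4, Hsd17b7 and Idi1 are limited by low counts.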
